A study of Homo sapiens with 54 samples.

Results

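The cells described here are RH4 cells that carried at least 3 unique molecular identifiers (UMIs, each standing for 1 captured RNA molecule) summed over CCDC80, PRSS23, EDN1 and ELN at 16 h. RH4 is an established line of fusion-positive rhabdomyosarcoma, a childhood muscle-lineage tumor that carries the PAX3-FOXO1 fusion. Cells entered with at least 4000 UMIs, at least 200 genes and under 15% mitochondrial counts. Of 17659 such cells, 2431 were members, 1192 of 9313 in the DMSO library and 1239 of 8346 in the library of cells treated with 1 µM P3FI-90. P3FI-90 inhibits several histone demethylases, among them KDM1A, and is most selective for KDM3B, which removes methyl groups from lysine 9 of histone H3. Both libraries came from wild-type cells of the same line, 1 library per condition, so no test between or within them was possible. The members were compared, inside each library, with the 10526 cells in which the 4 genes had no UMI (5462 in DMSO and 5064 in P3FI-90). The 4 genes chose the members and their own levels are therefore a description only. PSG1, the fifth marker, took no part in the choice of cells, but it was picked as a marker with earlier results of these data known.

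EDN1 encodes preproendothelin, the precursor of a secreted vasoconstrictor peptide that signals through the receptors EDNRA and EDNRB. ELN encodes elastin, the rubber-like core protein of elastic fibres, CCDC80 a secreted protein that binds the extracellular matrix, and PRSS23 a secreted serine protease. PSG1 belongs to the pregnancy-specific glycoproteins, a family best known from the placental syncytiotrophoblast.

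On GRCh37 the marker genes lie on 5 chromosomes, CCDC80 on the minus strand of chromosome 3 (112315644 to 112368377), PRSS23 on the plus strand of 11 (86502101 to 86663952), EDN1 on the plus strand of 6 (12290594 to 12297427), ELN on the plus strand of 7 (73442119 to 73484237) and PSG1 on the minus strand of 19 (43370616 to 43383974). The 250 bases before a RefSeq start site are shown for 3 of them, since peaks of the bulk chromatin data described further on lie at or next to these places. RefSeq's table is on GRCh38, and each stretch was found once on GRCh37, whose positions are given. Capitals mark a match to the GATA motif AGATAA, searched on both strands. ELN and PSG1 are named only.
EDN1, chr6:12290344-12290593, plus strand: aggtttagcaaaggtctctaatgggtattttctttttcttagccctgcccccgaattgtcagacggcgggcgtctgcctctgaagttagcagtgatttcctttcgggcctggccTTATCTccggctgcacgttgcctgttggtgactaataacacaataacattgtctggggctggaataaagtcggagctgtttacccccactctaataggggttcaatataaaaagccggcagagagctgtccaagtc
CCDC80, chr3:112359991-112360240, minus strand: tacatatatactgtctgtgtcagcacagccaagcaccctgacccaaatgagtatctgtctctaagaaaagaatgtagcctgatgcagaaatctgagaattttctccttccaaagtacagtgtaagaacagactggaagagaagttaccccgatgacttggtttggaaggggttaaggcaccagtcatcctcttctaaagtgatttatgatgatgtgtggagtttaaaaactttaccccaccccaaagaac
PRSS23, chr11:86511334-86511583, plus strand: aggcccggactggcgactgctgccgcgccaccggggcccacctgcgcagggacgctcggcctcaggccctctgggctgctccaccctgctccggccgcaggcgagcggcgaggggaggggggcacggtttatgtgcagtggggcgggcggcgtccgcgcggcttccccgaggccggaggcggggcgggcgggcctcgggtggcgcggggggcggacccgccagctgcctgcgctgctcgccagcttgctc
The EDN1 promoter held the GATA letters on the opposite strand, with its first base 136 bases before the start, and 9.17% of 35116 RefSeq promoters of the same length held them. Neither these letters nor those of AP-1 (TGANTCA, in 6.57% of promoters) or TEAD (GGAATG, in 11.9%), were found in the CCDC80 and PRSS23 stretches shown. Of the 2 other RefSeq starts of EDN1, 1 had the TEAD letters 129 bases before it. The PRSS23 stretch was 79.6% G and C, against 49.2% for EDN1 and 42.0% for CCDC80.

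Members made up 12.8% of kept cells in DMSO (95% exact Clopper-Pearson interval 12.1 to 13.5) and 14.8% in P3FI-90 (14.1 to 15.6). All intervals cover counting error only. Members had more RNA captured than the cells at 0, with a median of 17837 against 11086 UMIs in DMSO and 21453 against 14081 in P3FI-90. Their median mitochondrial share was lower, at 5.89% against 6.92% in DMSO and 6.24% against 7.01% in P3FI-90. The share of members rose with depth, from 3.61% in the shallowest of 4 equal depth classes of DMSO cells to 24.7% in the deepest, and from 4.98% to 27.2% in P3FI-90.

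When every kept cell was thinned to 4000 UMIs, 3.62% of DMSO cells (3.25 to 4.02) and 4.33% of P3FI-90 cells (3.90 to 4.78) still had 3 or more. With a lower bar of 1 UMI the order turned, at 22.9% in DMSO and 19.2% in P3FI-90. With only cells of at least 8000 UMIs the shares were 16.3% in DMSO and 16.0% in P3FI-90. No order of the 2 libraries was therefore read from these shares. The same 4 genes were also seen in barcodes under 4000 UMIs, where the share with a UMI was 8.85% for CCDC80, 9.4% for ELN, 2.0% for PRSS23 and 1.06% for EDN1 in DMSO at a median of 2391 UMIs. In P3FI-90 these shares were 6.48%, 4.15%, 0.983% and 0.291% at a median of 1709 UMIs.

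**Figure D1:**
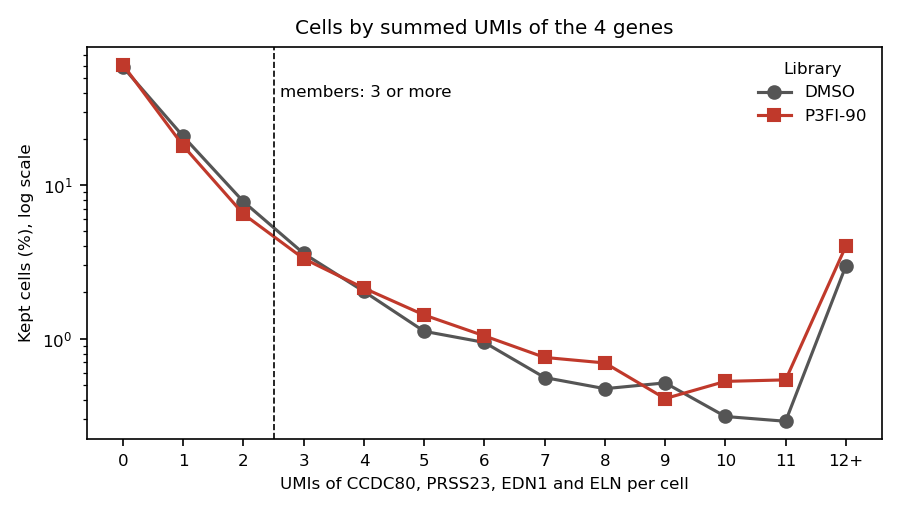
Share of kept cells (percent, log scale) by their summed UMIs of CCDC80, PRSS23, EDN1 and ELN, for the DMSO library (circles) and the P3FI-90 library (squares), with the last point pooling 12 or more. The shares fell from 0 to 7 UMIs in both libraries and were uneven from 8 to 11, and cells with 12 or more UMIs were 2.97% of DMSO and 4.00% of P3FI-90 cells.

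The signal was concentrated in few cells. Cells with 12 or more UMIs numbered 277 in DMSO and 334 in P3FI-90, yet held 49.6% and 57.4% of all UMIs of the 4 genes in kept cells. The median member had 5 UMIs in DMSO and 6 in P3FI-90, and the highest cell had 119 and 162. At the threshold there was no gap. Just outside it, 726 DMSO and 540 P3FI-90 cells had 2 UMIs, and just inside it 334 and 277 cells had 3. PSG1 stood at 0.105 and 0.123 UMIs per 10000 in the cells just outside and at 0.140 and 0.157 in those just inside (DMSO and P3FI-90 in each case), all above the 0.0244 and 0.0281 of the cells at 0.

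The 4 genes chose the members, so which of them a member carried is a description only. No share expected without overlap was computed, and overlap was not tested by these counts. At least 2 of the 4 genes were present in 943 of 1192 DMSO members (79.1%) and 958 of 1239 P3FI-90 members (77.3%). CCDC80 was found in 79.4% and 78.0% of members and ELN in 81.9% and 81.7%. PRSS23 was found in 36.6% and 38.4% and EDN1 in 16.6% and 18.2%, so most members had no EDN1 molecule counted. The commonest make-up was CCDC80 with ELN alone, in 414 DMSO and 375 P3FI-90 members, while 67 and 74 members held all 4 genes. ELN alone was carried by 159 and 183 members, CCDC80 alone by 78 and 89, PRSS23 alone by 9 and 7 and EDN1 alone by 3 and 2.

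Members held 82.6% of all CCDC80 UMIs of kept cells in DMSO and 89.8% in P3FI-90. For EDN1 these shares were 79.6% and 84.8%, for PRSS23 75.4% and 80.6%, and for ELN 74.9% and 81.5%. In UMIs per 10000, members had 2.28 and 2.27 of CCDC80, 2.08 and 2.12 of ELN, 0.422 and 0.418 of PRSS23, and 0.161 and 0.169 of EDN1. These levels lay close to each other in the 2 libraries. The same genes chose the members by a fixed UMI bar, and the members of the libraries differed in depth. Whether expression of these genes was alike in the 2 libraries was therefore not tested by these values.

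Each gene was next read in cells chosen by the other 3, so that its own UMIs took no part in their choice. The members, and so these genes, were chosen with earlier results of these data known. The ratios are therefore a description and not an independent test that the genes go together. CCDC80 reached 2.5 UMIs per 10000 in the 762 DMSO cells with at least 3 UMIs of the other genes, against 0.158 in the cells at 0 of them, which is 15.8-fold (14.8 to 16.8). In P3FI-90 it was 21.6-fold (20.2 to 23.1). EDN1 was 13.8-fold higher in DMSO (10.7 to 17.8) and 19.4-fold in P3FI-90 (15.0 to 25.5). PRSS23 was 10.6-fold (9.25 to 12.2) and 13.2-fold (11.5 to 15.2) higher. ELN showed the smallest ratios, 8.38-fold (7.93 to 8.84) and 10.3-fold (9.74 to 10.8). All 8 ratios were also above 1.5 when the bar was 2 or 5 UMIs, when the deepest 3% of cells were left out and when the cells at 0 were matched on depth.

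PSG1 was counted 657 times in DMSO members and 175 times in the cells at 0. In P3FI-90 the counts were 890 and 228. Per 10000 UMIs this is 0.263 against 0.0244 in DMSO, a 10.8-fold ratio (9.11 to 12.8), and 0.300 against 0.0281 in P3FI-90, a 10.7-fold ratio (9.24 to 12.4). At least 1 PSG1 UMI was seen in 24.2% of DMSO and 26.9% of P3FI-90 members, and in 2.67% and 3.34% of the cells at 0. Barcodes under 4000 UMIs had it in 2.13% and 0.910%.

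A gene was counted as higher or lower in the members where its UMIs per 10000 differed at least 1.5-fold from the cells at 0 in both libraries. Totals left out the 4 genes, and genes entered where at least 20 UMIs would fall in the members if spread by depth. Of 12551 genes, 840 were higher (6.69%) and 557 lower (4.44%). With the cells at 0 matched on depth as well, 791 of the former (6.3% of genes) and 441 of the latter (3.51%) still passed. The median log2 ratio over all genes was -0.03 in each library. The 2 libraries gave log2 ratios with a Pearson correlation of 0.914 across these genes, a description over genes that share a library and its depth.

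**Figure D2:**
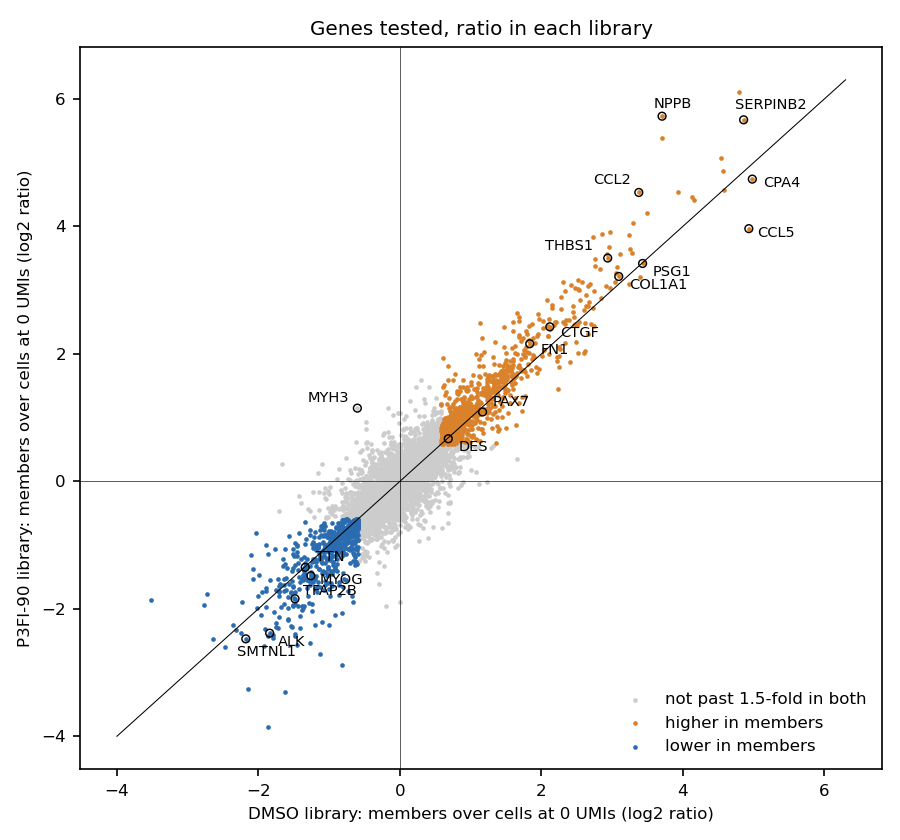
Log2 ratio of members over cells at 0 UMIs in the DMSO library (x axis) and in the P3FI-90 library (y axis), 1 point per gene. Genes past 1.5-fold in both are colored, circled genes are named in the text, and the line marks equal ratios. The named high genes, such as SERPINB2 and CPA4, lie in the upper right corner and ALK, MYOG and SMTNL1 in the lower left, while MYH3 alone of the labelled genes lies off the diagonal with opposite signs.

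SERPINB2 and CPA4 were among the named genes with the largest rise. SERPINB2, which encodes plasminogen activator inhibitor 2, had 586 UMIs in DMSO members and 58 in the cells at 0, 29.0-fold per 10000 UMIs (22.1 to 38.7). In P3FI-90 it had 1117 and 60, 51.0-fold (39.3 to 67.3). CPA4, a carboxypeptidase, was 31.6-fold and 26.8-fold higher. These genes were thus nearly absent from the cells at 0.

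Signaling peptides came next. The chemokine CCL5 had 202 UMIs in DMSO members and 114 in P3FI-90 members, against 19 and 20 in the cells at 0, ratios of 30.5 (19.1 to 51.8) and 15.6 (9.65 to 26.5). The chemokine CCL2 was 10.4-fold higher in DMSO and 23.1-fold in P3FI-90. NPPB, which encodes the natriuretic peptide BNP, was 13.1-fold (10.2 to 16.8) and 53.1-fold (38.8 to 74.5) higher. The NPPB intervals do not overlap, but they cover counting error only and treat UMIs of the same cell as independent. They also hold for single libraries, so no difference is read from them. IL24, a cytokine of the interleukin 10 family, was 9.86-fold and 16.7-fold higher.

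PSG2, a second pregnancy-specific glycoprotein, was 17.5-fold and 22.1-fold higher on 67 and 97 UMIs in members. PSG genes are close copies of each other, so counts could be shared out between them. SRPX2, a secreted sushi-repeat protein, TMEM119, a membrane protein, and DOCK2, an exchange factor for Rac, were 11.2-fold to 41.8-fold higher over both libraries. FXYD5, a modulator of the sodium pump, LY96, the co-receptor of TLR4, and CDK15, a cyclin-dependent kinase, lay between 9.22-fold and 14.5-fold. The long noncoding RNA LINC00607 was 17.9-fold and 21.2-fold higher. The transcripts RP11-572C15.6, RP11-557H15.4 and RP5-1172A22.1, whose roles are not described here, were 23.7-fold to 69.3-fold higher.

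The genes with the largest fall had low counts. SMTNL1, a smoothelin-like protein of muscle, had 36 UMIs in DMSO members and 468 in the cells at 0, a ratio of 0.221 (0.153 to 0.310), and 31 and 471 in P3FI-90, a ratio of 0.180 (0.121 to 0.259). PTPRT, a receptor tyrosine phosphatase, RGR, a retinal G protein-coupled receptor, and SEPT4, a septin, had ratios from 0.192 to 0.212. STATH, a salivary protein, ZSCAN1, a zinc finger protein, SYCE1, a part of the synaptonemal complex, and LRFN5, a synaptic adhesion protein, had ratios from 0.104 to 0.259. The transcripts CTD-2058B24.2 and RP11-136K7.2 lay between 0.164 and 0.255. Outside SMTNL1, these genes had 3 to 19 UMIs in the members of a library.

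The elastic fibre list held 4 higher and no lower genes of 12 measured, with a median log2 ratio of 0.37 in DMSO and 0.25 in P3FI-90 beside -0.03 for all genes. LOXL2, a lysyl oxidase that cross-links collagen and elastin, was at 2.29 UMIs per 10000 in DMSO members and 0.836 in the cells at 0, a log2 ratio of 1.45, and at 2.51 and 0.769 in P3FI-90, a ratio of 1.71. LOXL1, its relative that acts on elastin, had ratios of 1.03 and 1.31, and FBN1, the microfibril protein fibrillin 1, of 0.87 and 1.29. The fourth, EFEMP2, a fibulin needed for elastic fibres, was named after its value was seen.

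Of the other endothelin genes, none of 4 measured was higher. EDN3, which encodes a related endothelin, was lower, with log2 ratios of -1.64 and -1.54 on 14 and 18 UMIs in members. ECE1, the enzyme that cuts big endothelin to its active form, had ratios of 0.49 in DMSO and 0.77 in P3FI-90, and the receptor EDNRA 0.40 and 0.76, so both passed 1.5-fold in P3FI-90 alone. EDN2 had no UMI in members of either library.

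Among 20 measured collagen and matrix genes 9 were higher and none lower, with medians of 0.57 and 0.79. COL1A1, the alpha 1 chain of type I collagen, had 324 and 410 UMIs in members against 109 and 121 in the cells at 0, log2 ratios of 3.09 and 3.21. THBS1, thrombospondin 1, had ratios of 2.94 and 3.50. FN1, fibronectin, was among the most abundant, at 8.53 against 2.39 UMIs per 10000 in DMSO and 9.54 against 2.14 in P3FI-90. SPARC, a collagen-binding protein at 6.38 and 6.88 in members, was not past the threshold, with ratios of 0.24 and 0.35.

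Targets of the co-activator YAP and its TEAD partners, which respond to cell shape and density, were higher for 8 of 20 and lower for 1, with medians of 0.34 and 0.45, and the lower call was lost with depth matching. MYOF, a membrane repair protein, had log2 ratios of 2.98 and 3.03, CTGF, a matricellular growth factor, 2.12 and 2.42, and CRIM1, a transmembrane binder of bone morphogenetic proteins, 2.02 and 2.41. CYR61, a close relative of CTGF, was at 1.97 against 0.623 UMIs per 10000 in DMSO and 2.83 against 0.870 in P3FI-90. GADD45A, a stress-response gene on the list, had ratios of 0.16 and 0.20.

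Of 15 TGF-beta and SMAD target genes 7 were higher, with medians of 0.51 and 0.66. These included TGFBI, a matrix adhesion protein, at 2.75 and 3.38, BHLHE40, a transcriptional repressor, at 1.16 and 2.25, and PMEPA1, a feedback inhibitor of the pathway, at 0.94 and 1.12. ID3, a target better known from BMP signaling, had ratios of -0.38 and -0.46, so the list did not move as 1 block.

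Targets of SRF were higher for 3 of 13, with medians of 0.26 and 0.35. CNN1, calponin 1, had ratios of 1.74 and 2.25, TAGLN, transgelin, 1.60 and 1.82, and TPM1, tropomyosin 1, 1.19 and 1.45, while the actins ACTB and ACTG1 lay between 0.16 and 0.26. Of 9 immediate early genes 5 were higher, with medians of 0.59 and 1.19. FOSB had ratios of 2.19 and 2.51 and FOSL1 1.59 and 2.5, both subunits of AP-1, and IER3, an early response gene, 1.59 and 2.08. JUN, the most abundant of them, had ratios of 0.20 and 0.03.

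Feedback genes of the MAPK pathway were higher for none of 11 and lower for 2, ETV4 (-0.89 and -1.14) and SPRY4 (-1.22 and -0.87), with medians of -0.12 and -0.05. Hypoxia genes were higher for 3 of 13, with medians of 0.11 and 0.12, among them NDRG1 (0.79 and 1.00) and P4HA1 (0.71 and 0.84), and 1 of the 3 calls was lost with depth matching. Of 14 genes of the integrated stress response 1 was higher, the cystine transporter SLC7A11 (1.02 and 0.83), with medians of 0.07 and -0.02. ATF4, the factor that drives this response, was at -0.01 and 0.02. The stress-response share is close to the share of all genes.

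PAX3-FOXO1 target genes moved the other way. Of 24 measured, 9 were lower and 2 higher, with medians of -0.41 and -0.47. ALK, a receptor tyrosine kinase whose enhancer the fusion binds, had 49 UMIs in DMSO members and 504 in the cells at 0, a log2 ratio of -1.84, and 42 and 600 in P3FI-90, a ratio of -2.38. FGF8, a growth factor, was at 0.177 against 0.502 UMIs per 10000 in DMSO and 0.106 against 0.377 in P3FI-90, ratios of -1.50 and -1.84. GREM1, a BMP antagonist on the same list, was higher, at 1.60 in both. MYOD1, the myogenic master regulator, had ratios of -0.35 and -0.49, and IGF2, the most abundant, -0.26 and -0.32.

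Myogenic regulators were lower for 4 of 10 and higher for 2. MYOG, the factor that starts terminal differentiation, was at 0.615 UMIs per 10000 in DMSO members and 1.47 in the cells at 0, and at 0.502 and 1.40 in P3FI-90, log2 ratios of -1.26 and -1.48. CHRND, an acetylcholine receptor subunit, had ratios of -0.99 and -1.03. PAX7, a satellite cell factor, was higher at 1.17 and 1.09, but on 54 and 52 UMIs in members. DES, the muscle intermediate filament desmin, was at 4.30 and 4.29 in members against 2.67 and 2.70 (0.68 and 0.67), a call that was lost with depth matching. Of 18 contractile genes 4 were lower and 1 higher. TTN, titin, had ratios of -1.34 and -1.35 and TNNI1, slow troponin I, -0.71 and -0.80, while TNNC2, fast troponin C, was at 0.85 and 0.91. DES was thus abundant in the members and in the cells at 0.

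**Figure D3:**
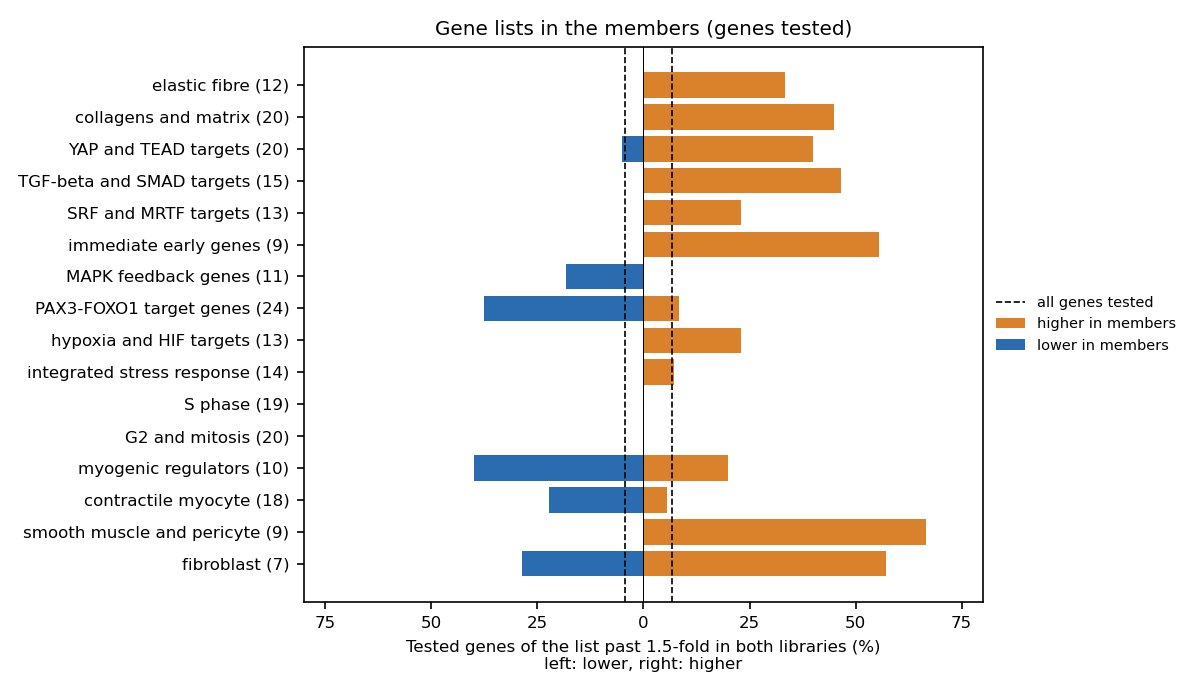
For each gene list with at least 5 measured genes (number in brackets), the percentage of its genes at least 1.5-fold higher (right, orange) or lower (left, blue) in members in both libraries. Dashed lines mark 6.69% higher and 4.44% lower for all 12551 genes. Matrix, TGF-beta, immediate early, YAP, smooth muscle and fibroblast lists reach far past the right line. PAX3-FOXO1 targets, myogenic regulators, contractile and MAPK feedback genes reach past the left one. Some lists pass both lines, the fibroblast list and the myogenic regulators most clearly.

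None of 19 S phase genes and none of 20 genes of G2 and mitosis passed 1.5-fold. Their medians were -0.36 and -0.47 for S phase and -0.07 and -0.10 for G2 and mitosis. Summed over the list, S phase genes were at 17.7 UMIs per 10000 in DMSO members against 21.9 in the cells at 0, and at 15.8 against 21.3 in P3FI-90. G2 and mitosis genes summed to 35.8 against 39.0 and 29.8 against 32.4.

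Markers of other cell types were read as whole lists. Of 9 measured smooth muscle and pericyte genes 6 were higher and none lower, and their summed level was 8.25 against 4.72 UMIs per 10000 in DMSO and 8.23 against 4.40 in P3FI-90. DES, which skeletal muscle also expresses, made 4.30 and 4.29 of the members' sum, and CNN1 and TAGLN stand on the SRF list as well. PDGFRB, the pericyte receptor, had log2 ratios of 1.94 and 2.28. Of 7 measured fibroblast genes 4 were higher, among them COL1A1, S100A4 and PDGFRB, and 2 lower. The summed level was 6.37 against 3.30 and 6.69 against 3.21, of which COL3A1 alone made 6.0 and 6.3 in members. The fibroblast markers THY1, PI16 and DPT had no UMI in members of either library, and DCN and PDGFRA were the 2 lower genes. PDGFRA also stood among the 2 lower of 4 measured genes of a mesenchymal rhabdomyosarcoma list, beside LRRN1 (-1.25 and -1.56), while EGFR was higher (0.96 and 1.00).

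Only 2 of 12 endothelial genes were measured. ROBO4, an endothelial guidance receptor, was higher (2.86 and 3.88) and EGFL7 was at 0.47 and 0.47, while PECAM1, VWF, CLDN5 and ERG had no UMI in members of either library. The endothelial list summed to 0.802 against 0.539 and 0.763 against 0.493. Of 12 syncytiotrophoblast genes 3 were measured. KRT7, a keratin, was at 2.67 and 2.81 and PAPPA, a protease of IGF-binding proteins, at 1.96 and 2.63, while ERVW-1, the syncytin gene, was at -0.50 and -0.67. CGA, CSH1, CSH2 and GH2, hormone genes that define that cell type, had no UMI in members, and the list summed to 1.47 against 1.77 and 1.21 against 1.49. Of 7 immune genes CD68 was measured and was higher (1.95 and 2.31), PTPRC had no UMI, and the list summed to 0.0417 against 0.0138 and 0.0394 against 0.0105. The part of admixed cells was not tested beyond these lists, and 34 cell barcodes occurred in both libraries.

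The levels followed the UMI count of the 4 genes across cells, also below the threshold. Depth rose over the same bins, from a median of 11086 to 21308 UMIs in DMSO and from 14081 to 23983.5 in P3FI-90. The binned levels were not matched on depth. From 0 through 1 or 2, 3 to 5, and 6 to 11, to 12 or more UMIs, PSG1 went from 0.0244 through 0.0735, 0.163 and 0.303 to 0.390 UMIs per 10000 in DMSO, and from 0.0281 through 0.0662, 0.163 and 0.299 to 0.490 in P3FI-90. FN1 went from 2.39 to 15.3 in DMSO and from 2.14 to 16.2 in P3FI-90. SERPINB2 went up most between the last bins, from 0.128 at 6 to 11 UMIs to 0.665 in DMSO and from 0.156 to 1.03 in P3FI-90. The cells with 12 or more UMIs held 449 of the 586 SERPINB2 UMIs of DMSO members and 930 of the 1117 in P3FI-90.

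MYOG went down over the same bins, from 1.47 to 0.369 in DMSO and from 1.40 to 0.272 in P3FI-90. TFAP2B, a transcription factor on the PAX3-FOXO1 list, went from 0.470 to 0.0770 and from 0.452 to 0.0864, and FGF8 from 0.502 to 0.0844 and from 0.377 to 0.0720. MYOD1 went from 3.45 to 2.25 and from 2.77 to 1.63. FGFR4, a receptor on the PAX3-FOXO1 list, had no steady course, with 2.09 at 0 UMIs, 2.5 at 6 to 11 and 1.95 at 12 or more in DMSO, and 1.85, 2.01 and 1.57 in P3FI-90. PAX3 was at 0.167 and 0.136 at the ends in DMSO and at 0.0977 and 0.109 in P3FI-90. The contractile genes summed to 83.2 at 0 and 47 at 12 or more UMIs in DMSO, and to 72.7 and 37.2 in P3FI-90. TFAP2B, FGFR4 and PAX3 were named after their values were seen.

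**Figure D4:**
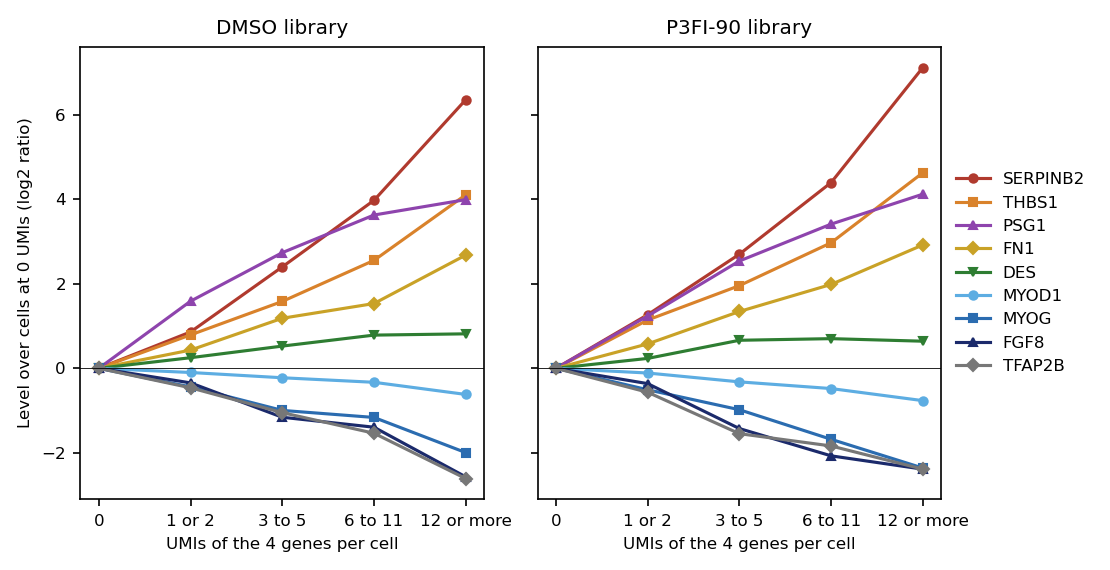
Level of 9 genes in cells grouped by their UMIs of the 4 genes, as the log2 ratio to the cells at 0 UMIs, for the DMSO library (left) and the P3FI-90 library (right). SERPINB2, THBS1, PSG1 and FN1 climb and MYOG, FGF8 and TFAP2B descend at every step in both libraries, while DES and MYOD1 stay within 1 log2 unit of 0.

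The members were not uniform. Members with ELN alone had little SERPINB2, with 2 UMIs in DMSO and 1 in P3FI-90, whereas members with CCDC80 had it at 0.292 and 0.477 UMIs per 10000. PSG1 was at 0.145 and 0.10 in the ELN-alone members and at 0.284 and 0.344 in all members with CCDC80. MYOG stood at 1.04 and 0.919 with ELN alone, between the 0.549 and 0.430 of members with CCDC80 and the cells at 0. DHRS2, a mitochondrial dehydrogenase, was named after its value was seen. In members with CCDC80 alone (78 in DMSO and 89 in P3FI-90) it was at 1.87 in DMSO and 1.15 in P3FI-90. The cells at 0 had 0.0719 and 0.0764, and the other members are not compared here. SERPINB2 in the same members was at 0.0147 in DMSO but 0.186 in P3FI-90.

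Within the members, P3FI-90 was at least 1.5-fold above DMSO for 141 genes (1.12%) and below for 428 (3.41%) of 12551. In the cells at 0 the same comparison gave 115 (0.916%) and 377 (3%). With 1 library per condition these counts compare libraries. CTGF was 0.53 higher (log2) in P3FI-90 members and 0.23 in the cells at 0, and CYR61 0.53 and 0.48. ATF4 was 0.64 and 0.61 higher and GADD45A 0.67 and 0.64. NPPB was at 0.86 in members and at -1.16 in the cells at 0, and CCL5 was at -1.07 and -0.11. FGF8 was at -0.75 in members and -0.41 in the cells at 0, so its level was lower in the P3FI-90 library in either set of cells.

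Bulk RNA-seq of RH4 cells at 24 h held 3 DMSO, 3 P3FI-90 and 2 P3FI-63 libraries. P3FI-63 is a related inhibitor given at 10 µM, and P3FI-90 was given at 1 µM where the labels state a dose, so the 2 were not compared with each other. In bulk RNA, fewer cells of a kind and less RNA per cell cannot be told apart. CCDC80 had 72.3, 26.8 and 14 TPM in DMSO replicates 1, 3 and 4, 68.3, 33.8 and 18.4 in P3FI-90, and 44.4 and 13.4 in P3FI-63 replicates 3 and 4. ELN had 326, 94.5 and 56.8 in DMSO, 254, 119 and 70.8 in P3FI-90, and 53.5 and 56.9 in P3FI-63. Replicate 1 was the highest for both genes and the groups overlapped.

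PRSS23 had 42.4, 12.4 and 14 TPM in DMSO, 41.5, 15.3 and 13.9 in P3FI-90, and 22.5 and 6.42 in P3FI-63. EDN1 had 5.83, 4.06 and 2.98 in DMSO, 7.74, 6.89 and 5.30 in P3FI-90, and 34.6 and 3.53 in P3FI-63, where the 2 libraries lay far apart. PSG1 had 63.2, 50.2 and 47 in DMSO, 64.2, 94.3 and 65.4 in P3FI-90, and 55.2 and 39.7 in P3FI-63. PSG1 was higher in each P3FI-90 library than in every DMSO library, by 0.46 ± 0.26 (SE) on the log2(TPM + 1) scale, which limma did not call (Benjamini-Hochberg adjusted p = 1.00). The share of all genes with such an order of libraries was not computed.

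None of the 5 markers was called at 24 h. The P3FI-90 log2 changes were 0.21 ± 0.67 for CCDC80, 0.08 ± 0.62 for PRSS23, 0.55 ± 0.65 for EDN1 and 0.09 ± 0.62 for ELN (SE, limma, adjusted p = 1.00 each). Of 12332 genes limma called 1 higher (0.00811%) and none lower (0%) with P3FI-90, 244 being under 0.05 before adjustment, and with the replicate number as a block 3 higher (0.0243%) and none lower (0%). The P3FI-63 changes were -0.29 ± 0.75 for CCDC80, -0.64 ± 0.69 for PRSS23, 1.3 ± 0.72 for EDN1, -1.12 ± 0.69 for ELN and -0.18 ± 0.29 for PSG1, with adjusted p from limma of 0.847, 0.606, 0.345, 0.385 and 0.746. EDN1 was called only without P3FI-63 replicate 4 (2.79, adjusted p = 0.0151). The ELN change was -0.52 with the replicate number as a block and -0.40 without DMSO replicate 1.

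**Figure D5:**
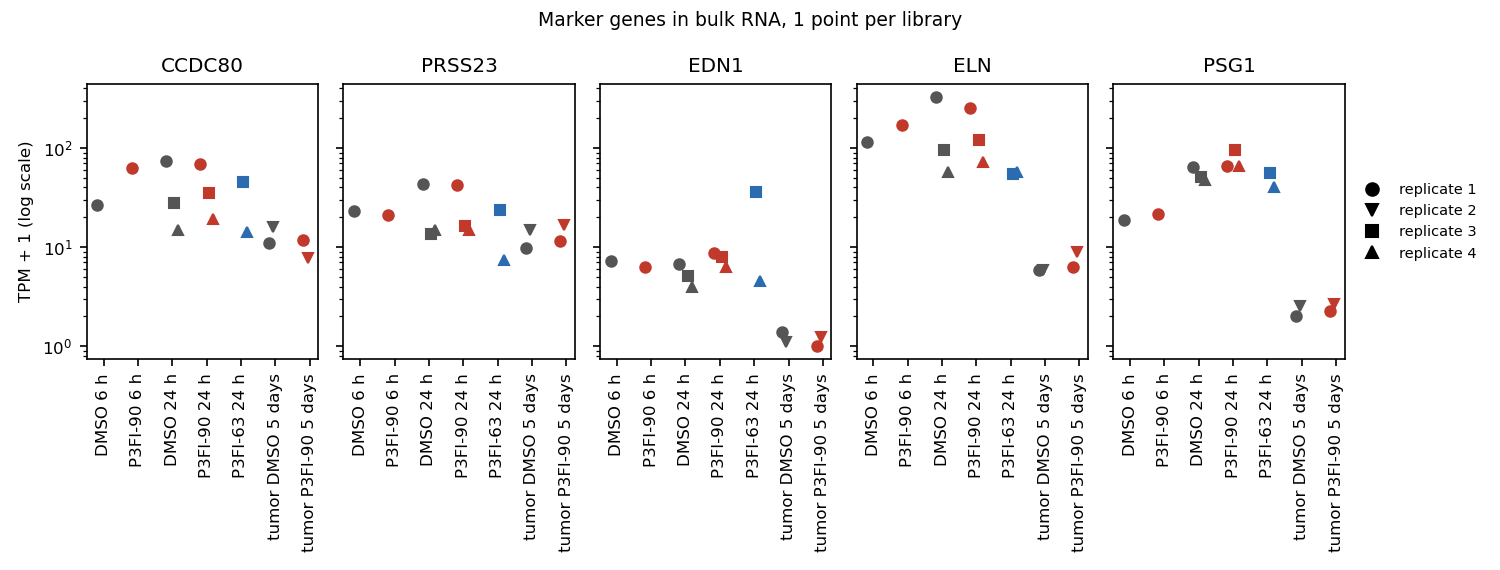
TPM + 1 (log scale) of the 5 marker genes in each bulk RNA library, with 1 symbol per replicate number, DMSO in grey, P3FI-90 in red and P3FI-63 in blue. Within 24 h DMSO the CCDC80, PRSS23 and ELN points spread widely with replicate 1 on top, and the 4 tumor libraries lie lowest for EDN1, ELN and PSG1.

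The genes higher in members were then followed in the P3FI-63 contrast, in which limma called 143 of 12332 genes higher (1.16%) and 149 lower (1.21%). Of 723 genes higher in members, 43 rose (5.95%) and 7 fell, and of 375 genes lower in members, 52 fell (13.9%) and 2 rose. The median log2 change was -0.07 for the former and -0.89 for the latter, beside -0.35 for all genes. With the replicate number as a block, 86 of the 723 rose (11.9%) and 43 fell, and 154 of the 375 fell (41.1%) and 8 rose, against 2.7% higher and 8.31% lower of all genes. By library, the genes lower in members had medians of -0.71 and -1.07 against the DMSO mean in P3FI-63 replicates 3 and 4, and the genes higher in members 0.38 and -0.56. All genes had medians of 0.06 and -0.77 in these 2 libraries, so replicate 4 stood apart as a whole. These counts depended on single libraries, as did the counts over all genes. Without DMSO replicate 1, 3 or 4, limma called 0.381%, 0.432% and 0.348% of all genes higher and 0.162%, 0.163% and 0.226% lower. Of the genes higher in members 2.48%, 2.35% and 1.79% rose, and of those lower in members 2.17%, 1.89% and 3.23% fell. These rising genes numbered 18, 17 and 13 and these falling genes 8, 7 and 12. Without P3FI-63 replicate 3 they numbered 78 of 721 (10.8%) and 159 of 376 (42.3%), and 146 genes higher in members (20.2%) fell as well. That fit called 3.79% of all genes higher and 35.5% lower, so its falling counts are not read as results about these genes. Without P3FI-63 replicate 4 the medians were 0.38 for genes higher and -0.71 for genes lower in members, beside 0.06 for all genes. Without P3FI-90 replicate 1, 3 or 4, which share the estimate of spread, 30, 32 and 26 genes higher in members rose. Of those lower in members, 31, 27 and 25 fell. These were 4.14%, 4.42% and 3.58% of the former and 8.27%, 7.24% and 6.67% of the latter. Of all genes, 0.769%, 0.822% and 0.662% were called higher and 0.591%, 0.521% and 0.452% lower. With median-ratio scaling, which moved the median of all genes to 0.01, limma called 334 genes higher and 203 lower, and the medians became 0.29 and -0.59.

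Among the genes named for the members, 4 are given here that limma called in P3FI-63. Most other named genes were not called in this contrast, and their changes went both ways. Among genes higher in members, the log2 change was -1.77 for TMEM119, -1.07 for CCL5 and -0.77 for DOCK2. The change was 2.01 for NPPB, 1.55 for LY96 and 1.03 for CYR61, and limma called none of these genes. CTGF had 77.7, 48.4 and 38.4 TPM in DMSO and 400.3 and 168.4 in P3FI-63, a log2 change of 2.29 ± 0.39 (SE, limma, adjusted p = 0.0205). Both P3FI-63 libraries lay above all DMSO libraries, in a gene that had been picked for its call.

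FGF8 had 15.7, 18.0 and 22.9 TPM in DMSO and 0.960 and 2.14 in P3FI-63, a log2 change of -2.98 ± 0.47 (limma, adjusted p = 0.0150). MYOG had 296, 353 and 390 against 52.0 and 129 (-2.06 ± 0.34, limma, adjusted p = 0.0177), and TFAP2B 6.66, 10.9 and 6.53 against 1.35 and 1.32 (-1.92 ± 0.37, limma, adjusted p = 0.0310). The 2 groups did not overlap for any of these 3 genes, which had been picked for their calls. The share of all genes without overlap between so few libraries was not computed. A fit with the replicate number as a block gave adjusted p from limma of 0.0113 for CTGF, 0.00457 for FGF8, 0.0104 for MYOG and 0.00928 for TFAP2B. The fits that left out 1 library used no block. Without DMSO replicate 3 the adjusted p from limma was 0.0771 for CTGF, 0.0615 for FGF8, 0.0702 for MYOG and 0.131 for TFAP2B, and without DMSO replicate 4 it was 0.0748, 0.0695, 0.0748 and 0.0934. Without DMSO replicate 1 it was 0.0625 for FGF8, 0.0623 for MYOG and 0.113 for TFAP2B, which also missed 0.05 without P3FI-63 replicate 4 (0.0580) and without P3FI-90 replicate 1, 3 or 4 (0.0647, 0.0537 and 0.0687). CTGF passed in 9 of 12 alternative fits, FGF8 in 8, MYOG in 7 and TFAP2B in 4, with the same direction in all 12 and a largest adjusted p of 0.0999, 0.0695, 0.129 and 0.131. In P3FI-90 none of the 723 higher and 375 lower genes was called, and their medians were 0.12 and -0.33 beside -0.08 for all genes.

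Elsewhere the markers varied with the setting. At 6 h, with 1 library each and so no test, CCDC80 was at 25.4 TPM in DMSO and 62.0 in P3FI-90, and ELN at 114 and 171. EDN1 was at 6.28 and 5.24, PRSS23 at 22.3 and 20.3 and PSG1 at 17.8 and 20.6 in the same order. RH4 tumors were grown in mice and treated for 5 days, and such tumors also hold host cells. EDN1 was at 0.390 and 0.110 TPM in 2 DMSO tumors and at 0 and 0.230 in 2 P3FI-90 tumors. ELN was at 4.89 and 4.85 against 5.31 and 7.91, and PSG1 at 1.02 and 1.55 against 1.25 and 1.69. CCDC80 was at 10.1 and 15.1 against 10.7 and 6.71 and PRSS23 at 8.82 and 13.8 against 10.5 and 15.5. None of the 4 markers that could be fitted was called in tumors (limma, 0 of 12357 genes higher and 2 lower, 849 under 0.05 before adjustment), and EDN1 was under the filter of 1 TPM.

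The chromatin lists came from all RH4 cells of a dish. H3K4me3, the mark of active promoters, had a peak within 2000 bases of the EDN1 start in 3 of 3 DMSO and 2 of 3 P3FI-90 libraries at 24 h, with a -log10 p of 118, 12.8 and 74.1 in DMSO and of 238 and 129 in P3FI-90. The peaks of 4 of these 5 libraries span the EDN1 stretch shown, for example chr6:12289727-12291060. At ELN a peak was found in 2 of 3 and 2 of 3 libraries and at the annotated CCDC80 start in 1 and 2 of 3. PRSS23 and PSG1 had none at their annotated starts. Between 50.5% and 60.9% of 20098 protein-coding genes had such a peak in a library, and with 3 libraries against 3 an exact permutation test cannot go below a p of 0.10.

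With any annotated transcript start allowed, CCDC80 had an H3K4me3 peak in 2 of 3 DMSO and 2 of 3 P3FI-90 libraries, and PRSS23 had an H3K4me3 peak in 1 of 3 DMSO and 2 of 3 P3FI-90 libraries, just downstream of the stretch shown (chr11:86511597-86512133 in P3FI-90 replicate 1). At the CCDC80 stretch, RNA polymerase II had a peak in DMSO (chr3:112359876-112360152) and none in P3FI-90, in lists of 6031 and 521 peaks. Polymerase with phosphorylated Ser5, the form near start sites, had a peak there in both (chr3:112359637-112360302 in DMSO and chr3:112359746-112360476 in P3FI-90). In ATAC-seq, which marks open chromatin, EDN1 had a peak at its start after 4 h of P3FI-63 (chr6:12290597-12290706) and none in DMSO, in lists of 55987 and 30221 peaks. HP1, a reader of methylated lysine 9, had a peak within 2000 bases of the annotated CCDC80 start in both conditions, which 3.22% of genes had in DMSO and 7.80% in P3FI-90. Neither condition kept it at a -log10 p of at least 10, and within 500 bases it was found in DMSO alone.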

How the data were processed

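The single-cell matrices held UMI counts per gene and barcode that the authors deposited from Cell Ranger 6.1.2, the version in the submitters' processing notes. Totals were 145739386 UMIs in 13516 barcodes (DMSO) and 156822590 in 11415 (P3FI-90). Cells needed 4000 UMIs, 200 genes and under 15% mitochondrial counts. Doublets were not called, and leaving out the deepest 3% of cells was tried instead. Levels are summed UMIs per 10000, leaving out the 4 genes, with exact 95% intervals of the counts. Depth matching weighted the cells at 0 to the members over 10 depth bins. The members and gene lists were chosen with earlier results of these data known. Named genes were the 5 markers, the 20 higher and 10 lower genes with the largest change (by the smaller of both libraries' log2 ratios) that passed with and without depth matching, and per list up to 3 of the largest such changes and up to 2 of the highest level. A few genes that this rule names are not reported here.

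Bulk values were TPM per gene that the authors deposited from STAR and RSEM on GRCh37. They were tested as log2(TPM + 1) with limma 3.58.1 in R 4.3.3 for genes whose mean reached 1 TPM, with an adjusted p under 0.05 as the call. Depth is unknown from TPM. The titles of DMSO replicates 3 and 4 carry different dates, the labels do not say for every library whether it was a separate culture, and p-values measure the spread between these libraries. The replicate numbers paired the 24 h libraries, since deviations of same-numbered libraries correlated at 0.571, 0.575 and 0.643 (DMSO with P3FI-90) and 0.312 and 0.388 (DMSO with P3FI-63). Peaks were the authors' deposited MACS2 lists with -log10 p, called per library. Python 3.11.15, NumPy 2.4.6, SciPy 1.17.1 and pandas 2.3.3 were used, and the ratios and the limma fit were tested on simulated data. 4 bulk control libraries with no treated partner in these comparisons were not used here.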

Additional observations from a re-analysis of the deposited data

Results flagged for a closer look

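MYH3, ANKMY1, CSRP3 and NANOS3 were the 4 of 12551 genes past 1.5-fold in opposite directions in the 2 libraries, and the difference was not tested. MYH3, embryonic myosin heavy chain, had 126 UMIs in DMSO members and 549 in the cells at 0, a log2 ratio of -0.60, but 331 and 409 in P3FI-90, a ratio of 1.15. ANKMY1, an ankyrin repeat protein, was at 0.68 (69 and 124 UMIs) in DMSO and -0.65 (45 and 194) in P3FI-90. CSRP3, a muscle LIM protein, was at -0.63 (39 and 173) and 0.61 (88 and 158). NANOS3, an RNA-binding protein, was at 0.60 (30 and 57) and -0.73 (18 and 82). Each gene has 1 library per condition.

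Barcodes left out of the comparison also carried the 4 genes. At least 3 UMIs of them were found in 1.29% of 3945 DMSO barcodes under 4000 UMIs (exact Clopper-Pearson interval 0.964 to 1.70) and in 0.837% of 2748 in P3FI-90 (0.531 to 1.25). Among barcodes with 15% or more mitochondrial counts the share was 6.59% (17 of 258) in DMSO and 12.5% (40 of 321) in P3FI-90.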

How the results depend on the processing

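The share of cells in the group followed its definition. In DMSO and P3FI-90 it was 20.6% and 21.3% with at least 2 UMIs, 7.18% and 9.39% with at least 5, 16.3% and 16.0% in cells of at least 8000 UMIs, 12% and 13.9% without the deepest 3% of cells, 3.62% and 4.33% after thinning, and without CCDC80, PRSS23 or ELN in the sum 8.18% and 10.5%, 11.6% and 13.5%, and 7.10% and 8.42%. The PSG1 ratio was 8.73 and 9.02 with at least 2 UMIs, 13.2 and 13 with at least 5, and 7.78 and 8.42 without CCDC80. A 2-fold threshold left 389 higher and 205 lower genes. Over 10 settings all 290 values of 29 genes with the largest changes, which had been picked for passing with and without depth matching, kept their direction and stayed past 1.5-fold.

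In bulk RNA with P3FI-63, the log2 change of CCDC80 became 0.10 with median-ratio scaling and 0.25 with the replicate number as a block, and that of PSG1 0.23 with the scaling, and the cause was not tested. The block changed no other direction or call of the 5 markers. With the block, genes higher in members gave 86 rising and 43 falling, and genes lower in members 154 falling and 8 rising. Without a filter on low values the first gave 19 and 4 and the second 26 falling, among more genes tested, with the scaling 83 rose of the first and 7 of the second, and with a pseudocount of 0.1 the second gave 1 rising. The first rose in 2.46% without the filter and 11.5% with the scaling, beside 0.684% and 2.71% of all genes. The second fell in 5.39% without the filter, beside 0.381% of all genes. Leaving out 1 library gave 13 to 78 rising and 0 to 146 falling of the first, and 7 to 159 falling and 1 to 9 rising of the second. The fit with the highest counts, without P3FI-63 replicate 3, called 35.5% of all genes lower and 3.79% higher.

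Leaving out 1 library, the P3FI-63 change ran from -1.12 to 0.54 for CCDC80, from -0.19 to 2.79 for EDN1, from -1.47 to 0.19 for PRSS23, from -1.66 to -0.40 for ELN and from -0.41 to 0.058 for PSG1, and 0 to 1 markers were called. The P3FI-90 change ran from -0.32 to 0.82 for CCDC80, from -0.44 to 0.81 for ELN and from -0.41 to 0.62 for PRSS23. In tumors it ran from -0.10 to 0.49 for PRSS23 and from -0.052 to 0.28 for PSG1. Within 500 bases of the start, 3 H3K4me3 peaks were found over the 5 markers and 3 P3FI-90 libraries, against 6 within 2000 bases. Depth limits the single-cell values of low genes, such as LRFN5 with 4 and 7 UMIs in members and EDN3 with 14 and 18.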
